A study of Mus musculus with 2 samples.

Results

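Polycomb repressive complex 2 (PRC2) was followed through its 10 core and accessory genes, *Ezh1*, *Ezh2*, *Suz12*, *Eed*, *Rbbp4*, *Rbbp7*, *Jarid2*, *Aebp2*, *Mtf2* and *Phf19*. They were taken by symbol from the 22095 genes of the deposited table, and all 10 were found. The libraries are of polyadenylated RNA from C2C12, a mouse line of myoblasts, transfected with the control oligo siNC or with si*Malat1* against the nuclear long non-coding RNA *Malat1*. Both cultures were moved to differentiation medium (DM), which holds 2% horse serum and lets myoblasts leave the cell cycle and fuse. The labels give no time in DM, and the paper places the RNA on the second day. There are 2 libraries, 1 per oligo, so no difference between them could be set against the spread between cultures, and no test was run. C2C12 is a single established line, and an siRNA lowers its target only in part.

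The question behind the comparison was how transcript levels differ when *Malat1* is lowered in differentiating muscle cells. *Malat1* itself was measured at 41.8 FPKM with siNC and 34.2 with si*Malat1*, where FPKM count fragments per kilobase of transcript, scaled to all mapped fragments of the library. Its log2 ratio was -0.29, and 10.5% of the genes compared had a lower one. The paper also checked the knockdown in the sequenced samples by qRT-PCR. It states that the end of *Malat1* does not arise by the usual cleavage and polyadenylation. FPKM from polyadenylated RNA therefore need not give the size of the knockdown. Every log2 ratio is of si*Malat1* over siNC with 0.1 FPKM added to both, so differences of low genes come out smaller than they are. The genes compared are the 11099 that were above 0 in both libraries with a mean of at least 1 FPKM, and all 10 PRC2 genes are among them. FPKM hold no counts, so the depth in fragments is unknown. Among 1937 genes with a mean up to 0.1 FPKM, the most common step ratio was 1.09 (457 genes, against a median of 59 at other ratios), so a fragment was worth about 1.09 times as many FPKM with si*Malat1*. The sum of FPKM was 484715 for siNC and 502715 for si*Malat1*. All 6 myogenic markers were present in both libraries, with summed levels of 6404 FPKM for siNC and 9344 for si*Malat1*. The skeletal actin gene *Acta1* made up most of that sum (3326 and 5199 FPKM). The markers were split, since *Acta1*, *Tnni2*, *Myog* and *Des* had log2 ratios of 0.64, 0.84, 0.71 and 0.13, while the myoblast factors *Myf5* (23.8 and 17.3 FPKM) and *Myod1* had -0.46 and -0.23. All 13 listed markers found for leukocytes, endothelium, adipocytes, cartilage and neurons had a mean below 1 FPKM, and the highest was the macrophage gene *Cd68* (1.00 and 0.592 FPKM).

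The oligo is shown because it defines the si*Malat1* library. Its antisense strand, with the seed (bases 2 to 8) in capitals, is taken from the list of oligos supplied with the paper.
siMalat1 antisense: uUACUUAUcacucauucac
Over 19 bases the paired sense strand matched a *Malat1* transcript with 0 mismatches. In the annotated transcripts of the 10 PRC2 genes, the closest stretch to either strand had 5 mismatches, in *Aebp2*, and the other genes had at least 6. Matches to the seed alone were not looked for, so an effect of the oligo on these transcripts was not tested.

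PRC2 places methyl groups on lysine 27 of histone H3, a mark of silenced genes. Its catalytic subunit is either EZH2, typical of dividing cells, or its paralog EZH1, which prevails in many resting and differentiated cells. SUZ12 and EED are required for activity, and the histone-binding proteins RBBP4 and RBBP7 complete the core. Accessory proteins define alternative forms of the complex: the Polycomb-like proteins MTF2 and PHF19 mark the form called PRC2.1, and JARID2 and AEBP2 the form called PRC2.2. In myoblasts EZH2 is known to occupy muscle genes, and its level declines as the cells differentiate.

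Most PRC2 genes differed by less than 1.2-fold between the libraries. Of the 10 genes, 8 had a log2 ratio below 0 and 2 above, against 57.4% of all genes compared below 0. Their median log2 ratio was -0.12, beside -0.04 over all genes compared. Being lower by at least 1.2-fold was met by 3 genes, *Phf19*, *Jarid2* and *Ezh2*, where the background was 12.8% of the genes compared. None was higher by 1.2-fold (background 8.74%), and none was past 1.5-fold lower (1.75%) or higher (2.29%). These are shares over genes of a single pair of libraries, and 10 genes are too few to read 3 of 10 as an excess over the background. The split of the background depends on scaling. With the median gene set to no change, 9.72% were past 1.2-fold lower and 10.9% higher, and with equal FPKM sums these were 18.3% and 6.71%.

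**Figure D1:**
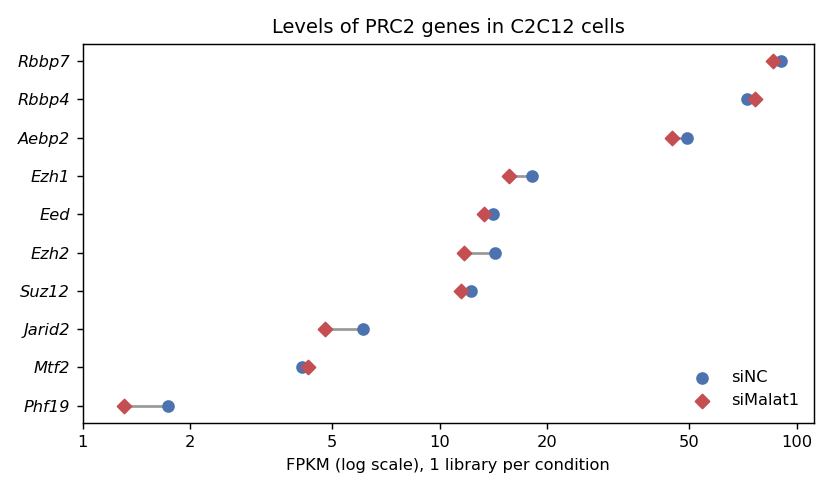
FPKM of each PRC2 gene (log axis) in the siNC library (blue circles) and the siMalat1 library (red diamonds), ordered by mean level. The diamond lies left of the circle for 8 of 10 genes, and the widest gaps are at *Phf19*, *Jarid2* and *Ezh2*.

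*Ezh2*, the methyltransferase of dividing cells, stood at 14.3 FPKM in the siNC library against 11.7 in the si*Malat1* library. The si*Malat1* library was thus 17.7% lower, with a log2 ratio of -0.28, and 11.2% of the genes compared had a lower ratio. Its value sits close to the 1.2-fold line, at 1.22-fold. *Ezh1*, the paralog of differentiated cells, stood at 18.1 and 15.7 FPKM, 13.4% lower in si*Malat1* with a log2 ratio of -0.21. *Ezh1* therefore had the higher level per length in both libraries, and it was also lower in si*Malat1*. Both genes are alone at their locus, *Ezh2* at chr6:47480273-47545029 and *Ezh1* at chr11:101052429-101087764 of mm9.

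The balance of *Ezh2* to *Ezh1* differed little. The ratio of their FPKM was 0.789 in siNC and 0.749 in si*Malat1*, a log2 change of -0.07, which no scaling between the libraries can alter. Their summed level was 32.3 FPKM with siNC and 27.4 with si*Malat1*, a log2 change of -0.24. Set against *Suz12*, the sum was 2.64 and 2.39. The log2 change of the sum was thus farther from 0 than that of the balance. The sum was still within 1.2-fold and, unlike the balance, depends on the scaling between the libraries. With 1 library per oligo, neither value can be set against a spread.

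*Suz12*, the scaffold of the core, stood at 12.3 FPKM in the siNC library against 11.5 in the si*Malat1* library, with a log2 ratio of -0.09. *Eed*, which reads the methyl mark and stimulates the enzyme, stood at 14.1 and 13.3 FPKM, with a log2 ratio of -0.08. These subunits, which have no paralog in the complex, kept nearly the same ratio to each other, 1.15 and 1.16 *Eed* per *Suz12*. Both differences were inside the range from the 10th to the 90th percentile of genes within 2-fold of their level, which for *Suz12* ran from -0.28 to 0.20. *Suz12* lies at chr11:79806608-79847625 and *Eed* at chr7:97103164-97129486 of mm9, each alone at its locus. In *Eed*, 10.5% of its windows of 50 bases, the length of each paired read, also occur in transcripts of other annotated genes. The share was 3.03% in *Suz12* and 1.61% in *Ezh2*. Such a match can be an overlapping transcript as well as a copy elsewhere.

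*Rbbp4* and *Rbbp7* were the most abundant members, and they lay on opposite sides of 0. *Rbbp4* stood at 72.7 FPKM with siNC and 76.6 with si*Malat1*, with a log2 ratio of 0.08. *Rbbp7* stood at 90.4 and 86.0 FPKM, with a log2 ratio of -0.07. Their sum was 163 FPKM in both libraries, 13.3 times the level of *Suz12* in siNC and 14.2 times in si*Malat1*. These proteins also belong to other chromatin complexes. Their values are less certain than those of the other members, since *Rbbp4* shares its locus in the table (chr4:128964865-129012614 of mm9) with *Sync* (76.6 and 68.9 FPKM) and *Rbbp7* (chrX:159198304-159267331) with *Txlng* (2.12 and 2.00 FPKM). Of the 50-base windows, 33.8% in the longest coding transcript of *Rbbp4* and 15.1% in that of *Rbbp7* also occur in transcripts of other annotated genes. *Rbbp4* and *Rbbp7* share none with each other, nor do *Ezh1* and *Ezh2*.

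*Jarid2* and *Phf19*, accessory genes of the different forms of PRC2, were the lowest of all members in si*Malat1* relative to siNC. *Jarid2*, which helps to recruit PRC2 to its targets, stood at 6.11 FPKM in the siNC library against 4.76 in the si*Malat1* library, 22.1% lower with a log2 ratio of -0.35. *Phf19*, a Tudor-domain protein that binds methylated lysine 36 of histone H3, stood at 1.74 and 1.30 FPKM, 24.9% lower with a log2 ratio of -0.39. Both lay below most genes, with 6.78% and 5.54% of the genes compared lower still. *Phf19* is also the lowest member in level, and low genes scatter more. Among 1470 genes within 2-fold of its mean, 24.4% were past 1.2-fold lower, beside 17.6% of 3354 genes around *Jarid2*. The 10th percentile of these genes was -0.47 around *Phf19* and -0.343 around *Jarid2*, so *Jarid2* (-0.353) was just below its own. No 50-base window of *Phf19* or *Jarid2* recurs in another annotated gene, and both are alone at their locus, *Jarid2* at chr13:44826272-45016346 and *Phf19* at chr2:34749275-34769496 of mm9.

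**Figure D2:**
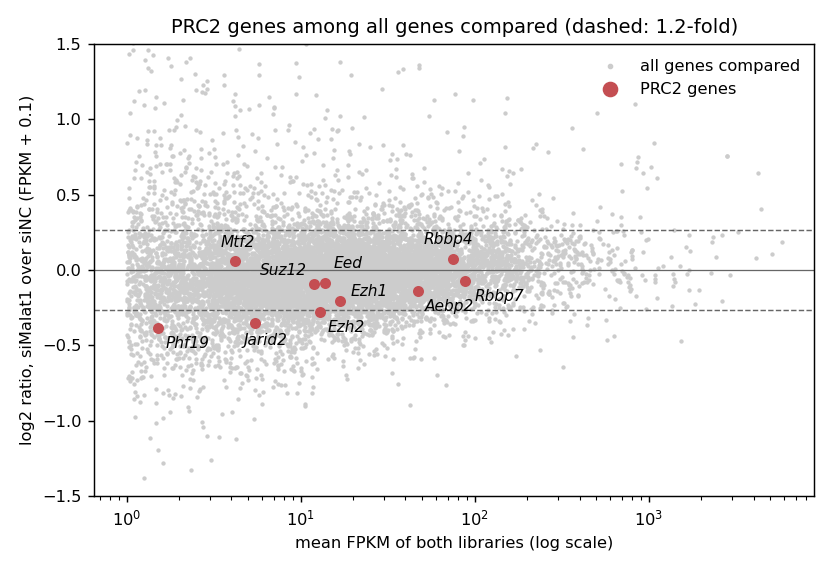
Log2 ratio of si*Malat1* over siNC (with 0.1 FPKM added) against mean FPKM (log axis) for the 11099 genes compared (grey, with 21 beyond 1.5 of 0 not drawn) and the 10 PRC2 genes (red, labelled). *Phf19*, *Jarid2* and *Ezh2* lie below the dashed line of 1.2-fold. Against genes within 2-fold of its level, *Jarid2* (-0.353) is just below the 10th percentile (-0.343). *Ezh2* is at its own 10th percentile (-0.28) and *Phf19* above its own (-0.47).

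Each of these genes has a partner of the same form of the complex that did not follow it to the same extent. *Mtf2*, the other Polycomb-like gene, stood at 4.12 FPKM with siNC and 4.29 with si*Malat1*, with a log2 ratio of 0.06. The ratio of *Mtf2* to *Phf19* was thus 2.37 in siNC and 3.29 in si*Malat1*, a log2 change of 0.47 with nothing added. This value rests on *Phf19*, the lowest member in level, and only some pairs of members were set against each other. *Aebp2*, a zinc-finger subunit that stabilizes the complex, stood at 49.4 and 44.8 FPKM, with a log2 ratio of -0.14. The ratio of *Aebp2* to *Jarid2* was 8.08 and 9.41. *Mtf2* lies at chr5:108494761-108538021 and *Aebp2* at chr6:140571184-140625939 of mm9. Of the *Mtf2* windows, 8.68% also occur in transcripts of other annotated genes, and 347 of these 348 windows in *Tmed5*. Relative to *Suz12*, *Jarid2* stood at 0.499 and 0.415, and *Mtf2* at 0.336 and 0.374. *Aebp2* had 4.03 times the level of *Suz12* in siNC, and PRC2 transcripts spanned 52.1-fold from *Phf19* to *Rbbp7* in that library. Relative levels of transcripts do not give the stoichiometry of the proteins.

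**Figure D3:**
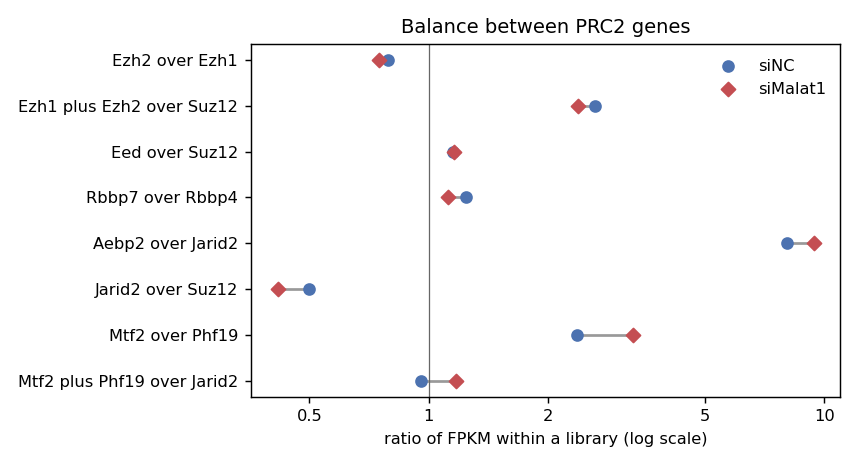
Ratio of FPKM between PRC2 genes within each library (log axis), siNC as blue circles and siMalat1 as red diamonds. *Ezh2* over *Ezh1* stayed between 0.749 and 0.789, while *Mtf2* over *Phf19*, the lowest member in level, went from 2.37 to 3.29.

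All 10 genes kept their direction under the 6 settings tried. These are 3 amounts added before the log and 3 other scalings of si*Malat1* to siNC. An amount added to both values cannot turn a direction. The scalings shifted all genes alike, by -0.05 to 0.04 on the log2 scale, less than the main ratio of any member. The kept directions thus follow from the settings and are no sign of stability. *Rbbp4* ranged from 0.02 to 0.11 and *Mtf2* from 0.01 to 0.09, so both were barely above 0 with equal FPKM sums. *Jarid2* was past 1.2-fold lower in all 6 settings, with values from -0.40 to -0.30. *Phf19* was past it in 5 of 6, except with 1 FPKM added (-0.25). *Ezh2* was past it in 4 of 6, except with the median gene set to no change (-0.24) and with 1 FPKM added (-0.26). *Ezh1* came closest from outside, at -0.26 with equal FPKM sums.

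**Figure D4:**
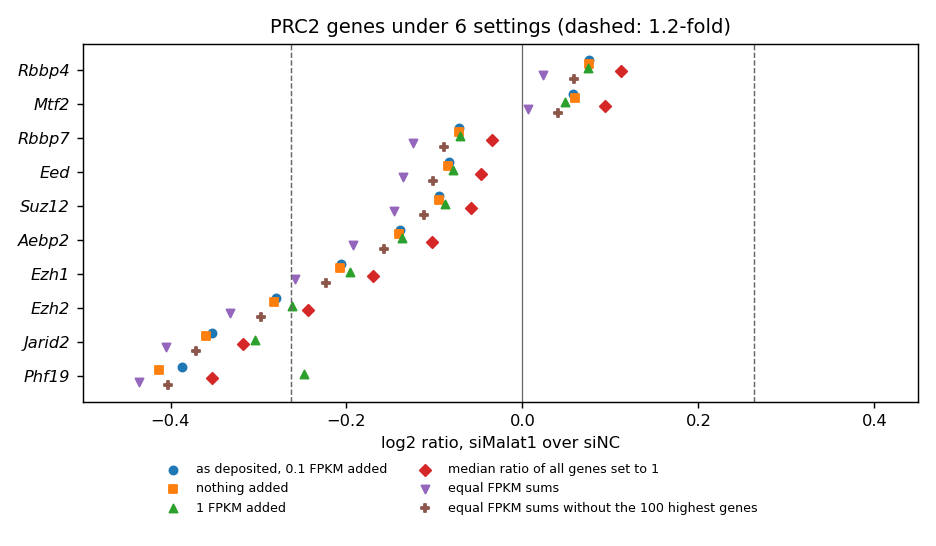
Log2 ratio of si*Malat1* over siNC for the 10 PRC2 genes under 6 settings, the deposited values with 0.1 FPKM, nothing or 1 FPKM added, and 3 scalings of si*Malat1*. The 8 genes below 0 and the 2 above 0 keep their side in each setting, though an added amount cannot change a side. *Ezh2* and *Phf19* cross the dashed line of 1.2-fold.

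Promoters were searched because transcription of *EZH2* and *EED* is known to depend on E2F factors in human cells. The words TTTCCCGC, TTTGGCGC, TTTCGCGC and TTTGCCGC, forms of the E2F site, were looked for on both strands in RefSeq promoters (GRCm38.p6) of 300 bases, 250 before the start site and 50 after. Such a word occurs in 2.26% of all 32851 promoters and in 4.85% of the 7769 genes compared that have a promoter in the set. Of the 10 PRC2 genes, 3 hold it, *Ezh2*, *Suz12* and *Phf19*. The 60 bases around each are shown with the word in capitals, read along the strand of the gene, at chr6:47594994-47595053 (minus strand), chr11:79992861-79992920 (plus) and chr2:34914151-34914210 (minus).
*Ezh2*: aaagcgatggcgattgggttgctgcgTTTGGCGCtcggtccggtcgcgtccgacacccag
*Suz12*: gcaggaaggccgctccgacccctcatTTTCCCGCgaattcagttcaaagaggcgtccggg
*Phf19*: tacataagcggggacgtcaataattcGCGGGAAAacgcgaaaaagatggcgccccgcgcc
Counted from the start site, the first base of the word is at 4 in *Ezh2*, at -219 in *Suz12* and at -208 in *Phf19*. *Ezh2* and *Phf19* are past 1.2-fold lower, *Suz12* is not, and *Jarid2*, which is, has none of these words in its promoters. A match is a run of letters and no evidence that a factor binds.

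Genes of proliferation were lower in si*Malat1* beside the PRC2 genes. All 18 genes listed had log2 ratios below 0, beside 57.4% of all genes compared, with a median of -0.56, beside -0.04. Past 1.2-fold lower were 16, beside a background of 12.8%. The proliferation antigen *Mki67* stood at 9.67 FPKM in the siNC library against 5.67 in the si*Malat1* library, *Top2a*, the topoisomerase of mitosis, at 22.7 and 14.0, and the helicase subunit *Mcm5* at 14.5 and 8.80. Also past 1.5-fold lower were *Plk1*, *Ccna2*, *Mcm2* and *Tk1*, with log2 ratios of -0.67, -0.63, -0.62 and -0.59. Summed over the list, the level was 417 FPKM for siNC and 319 for si*Malat1*. At the other end, the ribonucleotide reductase gene *Rrm2* (46.9 and 46.6 FPKM), the polymerase clamp *Pcna* (83.2 and 77.8 FPKM) and *Tyms*, which makes thymidylate (4.0 and 3.18 FPKM), had ratios of -0.01, -0.10 and -0.33. Each PRC2 gene had a log2 ratio closer to 0 than the list median of proliferation genes. Of the 16 proliferation genes with a promoter in the set, 4 hold an E2F word, beside 4.85% of the genes compared that have one. Of the 6 myogenic markers, 3 were past 1.2-fold higher with si*Malat1* (*Acta1*, *Tnni2* and *Myog*), beside a background of 8.74%. *Myf5* was past 1.2-fold lower (background 12.8%), and 2 were below 0 (*Myf5* and *Myod1*). The part of cell cycle state and of differentiation in the PRC2 values was not tested.

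**Figure D5:**
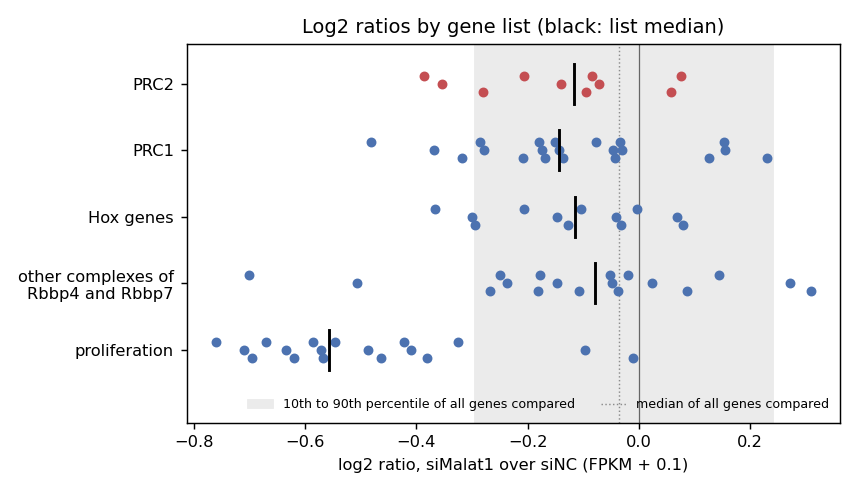
Log2 ratios of si*Malat1* over siNC for the genes compared in each list (points, PRC2 in red), with the list median as a black bar. The grey band spans -0.30 to 0.24, the 10th to 90th percentile of all genes compared; 2 of the 10 PRC2 genes and 16 of 18 proliferation genes lie to its left.

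PRC1, the sister complex that reads the PRC2 mark and ubiquitinates histone H2A, was listed with 21 genes among those compared. Of these, 17 were below 0, beside 57.4% of all genes compared. Past 1.2-fold, 5 were lower and 0 higher, beside backgrounds of 12.8% and 8.74%, and the median log2 ratio was -0.14, beside -0.04. The counts of PRC1 genes are too small to read as an excess. The lowest were chromobox genes, whose proteins bind methylated histone H3, with *Cbx6* at 34.3 FPKM with siNC and 24.5 with si*Malat1* (log2 ratio -0.48) and *Cbx2* at 3.71 and 2.85 (-0.37). *Yaf2*, a subunit of variant PRC1, followed at 18.2 and 14.6 FPKM (-0.32). On the higher side were the ring-finger genes *Pcgf1* (8.91 and 10.5 FPKM), *Pcgf6* (6.14 and 6.85) and *Pcgf5* (9.83 and 10.9). Other *Pcgf* genes, *Pcgf2* and *Pcgf3*, had log2 ratios of -0.14 and -0.03, so this family lay on both sides of 0. *Cbx6* shares its locus with other genes. With the median gene set to no change, 3 PRC1 genes were past 1.2-fold lower and 1 higher, beside backgrounds of 9.72% and 10.9%. *Phc2* is listed at 0 in both libraries, which can be a failed estimate.

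Further PRC2 accessory genes were below 1 FPKM or within 1.2-fold. *Phf1*, the remaining Polycomb-like gene, stood at 12.9 FPKM in the siNC library against 11.0 in the si*Malat1* library (log2 ratio -0.23), above *Mtf2* and *Phf19* in level in both libraries. *Lcorl*, whose locus gives a PRC2.1 subunit, stood at 1.85 and 2.06 FPKM at a shared locus. *Lcor*, its paralog (0.568 and 0.522 FPKM), and *Epop*, listed as *E130012A19Rik* (0.518 and 0.421 FPKM), were below 1 FPKM. *Ezhip*, an inhibitor of the catalytic site listed as *AU022751*, was listed at 0 in siNC and at 0.0275 FPKM in si*Malat1*.

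The enzymes that remove the mark did not differ alike. The demethylase *Kdm6b* stood at 16.1 FPKM with siNC and 12.8 with si*Malat1*, with a log2 ratio of -0.33, while *Kdm6a* stood at 8.0 and 8.02 FPKM. The Y-linked *Uty* is listed at 0 in both. The sum of *Ezh1* and *Ezh2* was 1.34 times that of *Kdm6a* and *Kdm6b* in siNC and 1.32 times in si*Malat1*. Genes of the Polycomb deubiquitinase, which removes the PRC1 mark, differed little, with *Bap1* at 27.9 and 28.7 FPKM, *Asxl1* at 14.1 and 12.9 and *Asxl2* at 4.74 and 4.42, and *Asxl3* is listed at 0 in both.

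Other complexes that hold RBBP4 or RBBP7 were split. *Chaf1b* and *Chaf1a*, subunits of the CAF-1 chaperone that loads histones behind the replication fork, stood at 6.12 and 3.73 FPKM (log2 ratio -0.70) and at 13.8 and 9.67 FPKM (-0.51). *Hdac1*, a deacetylase of the NuRD and SIN3 complexes, stood at 21.2 and 26.3 FPKM (0.31), and *Sap30* of SIN3 at 15.3 and 18.4 (0.27). *Mta3* of NuRD stood at 22.4 and 18.5 FPKM (-0.27) and *Sap18* at 7.72 and 8.55 (0.15), the latter at a shared locus. Over the 18 genes of this list, 3 were past 1.2-fold lower and 2 higher, beside backgrounds of 12.8% and 8.74%. These counts are too small to read as an excess. The median log2 ratio was -0.08, beside -0.04 over all genes compared.

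Factors that act with EZH2 at muscle genes were within 1.2-fold, with the exception of *Hdac1*. The DNA-binding recruiter *Yy1* stood at 24.7 FPKM in the siNC library against 23.0 in the si*Malat1* library, and *Srf*, the activator that takes its place, at 36.2 and 32.7. *Mapk14*, the p38 kinase that can phosphorylate EZH2, stood at 25.9 and 23.6 FPKM, the kinase gene *Akt1* at 277 and 271, and *Myod1*, the gene of MyoD, at 113 and 95.8.

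Genes described as PRC2 loci in myoblasts differed in both directions. *Myog*, *Ckm* and *Myh4*, muscle genes, had log2 ratios of 0.71, 0.49 and 1.2, and the satellite cell gene *Pax7* had -0.91 at 2.98 FPKM with siNC and 1.54 with si*Malat1*. *Cdkn2a*, described as a locus of PRC2 silencing, is listed at 0 in both libraries, which can be a failed estimate and is no measure of silencing. The Hox genes, the best known PRC2 targets, were mostly low. Of 39 Hox genes in the table, 12 were among the genes compared, and 10 of these were below 0, beside 57.4% of all genes compared. Past 1.2-fold, 3 were lower and 0 higher, beside backgrounds of 12.8% and 8.74%. Their median log2 ratio was -0.12, beside -0.04. With the median gene set to no change, 2 were past 1.2-fold lower. Low genes pass more often, as did 24.4% of the genes within 2-fold of *Phf19* in level. The Hox counts are too small to read as an excess. The largest ratios were those of *Hoxa11* (12 and 12.7 FPKM), *Hoxc13* (3.32 and 3.49) and *Hoxa7* (3.94 and 3.94), and the smallest those of *Hoxa3* (1.29 and 0.981), *Hoxa9* (5.71 and 4.62) and *Hoxa5* (1.92 and 1.54). Another 9 Hox genes are listed at 0 in both libraries, with the same limit as for *Cdkn2a*, and *Hoxa3*, *Hoxa5* and *Hoxa11* share their loci with other genes. The data hold no measure of lysine 27 methylation or of PRC2 protein.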

How the data were processed

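Polyadenylated RNA from 1 siNC and 1 si*Malat1* culture was sequenced. Per the submitters' processing notes, the authors mapped fragments to mm9 with TopHat2 2.0.9, estimated FPKM with Cufflinks 2.1.1 and compared libraries with Cuffdiff 2.1.1, and the deposited FPKM per gene were used here as given. The annotation and strandedness are not given in the sources used here, so overlapping genes cannot be separated. The table's natural log ratio and significance mark are the authors' own comparison and were not used. Starts were raised by 1, since 6044 of 16386 single-gene loci then match RefSeq gene length, against 414 as given.

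Log2 ratios of genes were computed from FPKM plus 0.1, and log2 changes of ratios or sums from FPKM with nothing added. With 2 libraries there is no p-value and no standard error. Genes were compared where both libraries were above 0 and the mean was at least 1 FPKM, and folds of 1.2 and 1.5 served as descriptive limits. Relative depth was read from low genes, whose ratios were matched to ratios of small whole numbers times a step, within 0.004 on the natural log scale. Counts were not recovered. The members, gene lists and limits were chosen with earlier results of these data known. Named outside PRC2 are all genes of lists of up to 8 genes, the 3 highest and 3 lowest log2 ratios and any past 1.5-fold of longer lists, and *Malat1*, with the markers mostly as sums. *Sync*, *Txlng* and *Tmed5* are named for a shared locus or shared windows, and *Pcgf2* and *Pcgf3* beside the other *Pcgf* genes. Alternatives were the amount added, the scaling, the minimum mean and members alone at their locus. Windows of 50 bases and oligo matches were taken from GENCODE M21 transcripts. Windows were looked for on either strand, so transcripts that overlap a member count as well as copies elsewhere. The calculations used numpy 2.4.6, pandas 2.3.3 and matplotlib 3.10.9 under Python 3.11.15 and were tested on simulated data.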

Additional observations from a re-analysis of the deposited data

How the results depend on the processing

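Of the 10 PRC2 genes, 3 were past 1.2-fold lower as deposited and 1, *Jarid2*, with 1 FPKM added before the log. The count was 2 with the median gene set to no change, where *Ezh2* no longer passed, and 2 where the minimum mean was 5 FPKM, which leaves out *Phf19* and *Mtf2*. It was 3 with equal FPKM sums, with or without the 100 highest genes, with nothing added, with no minimum, and over the 8 members alone at their locus. No member was past 1.2-fold higher under any of these. The median log2 ratio of the members ranged from -0.17 to -0.08, and the log2 change of *Ezh2* over *Ezh1* was -0.07 with each amount added. Of 50 member values under other settings, 49 moved by less than 0.1 on the log2 scale, and the exception was *Phf19* with 1 FPKM added (-0.25). The scalings shift all genes alike, by -0.05 to 0.04, so only the amount added could move a value by 0.1. The 49 values are thus no measure of stability. No paired analysis was possible because there is 1 library per condition. The depth in fragments is unknown, so no counting interval can be given for any member, including *Phf19*, the lowest in level.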
